A study of Mus musculus with 6 samples.

Results

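Etnppl, the lyase that breaks down phosphoethanolamine, was followed together with 9 genes of phosphatidylcholine and phosphatidylethanolamine synthesis in mouse liver: Pemt, Pcyt1a, Pcyt2, Etnk1, Etnk2, Chka, Chkb, Cept1 and Chpt1. These 10 genes were found by symbol among the 15960 genes of the deposited expression table, and all 10 were among the 9968 genes that passed the low-value filter of at least 1 FPKM in at least 3 libraries. FPKM counts fragments scaled for transcript length and library size, so it can be compared between genes per unit length. The set was chosen from the measured values of the same comparison that is described here, between genotypes, with Etnppl at its head for its large difference; its differences are therefore a description, and where the number of its genes past a threshold is given, nothing is read from it. The libraries, 3 per genotype, came from Cyp2e1-/- mice (knockout) and Cyp2e1+/+ mice (wild type), all on the C57BL/6 strain. Every animal was 22 weeks old and had been on a high-fat diet for 14 weeks, so no group on ordinary chow is compared. Cyp2e1 is a cytochrome P450 of liver that oxidises ethanol and many small solvents; the sources used here do not give how the allele was disrupted.

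Liver makes phosphatidylcholine and phosphatidylethanolamine, the main membrane phospholipids, by the Kennedy pathway. A kinase phosphorylates choline or ethanolamine, a cytidylyl transferase activates the product to a CDP-alcohol, and a transferase joins it to diacylglycerol. Hepatocytes also convert phosphatidylethanolamine to phosphatidylcholine by methylation through Pemt, which draws on S-adenosylmethionine. Etnppl acts at the branch point after the ethanolamine kinases: it cleaves phosphoethanolamine to acetaldehyde, ammonia and phosphate, which removes it from phospholipid synthesis.

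The promoter windows of Etnppl and Pcyt1a are shown because these are the members with the largest and the smallest difference between genotypes. They are the 250 bases before a transcription start in RefSeq (GRCm38.p6), read 5′ to 3′ along the gene, with CG dinucleotides in capitals. The Etnppl window is chr3:130617198-130617447 on the + strand, and the Pcyt1a window is chr16:32430671-32430920 on the + strand.
Etnppl: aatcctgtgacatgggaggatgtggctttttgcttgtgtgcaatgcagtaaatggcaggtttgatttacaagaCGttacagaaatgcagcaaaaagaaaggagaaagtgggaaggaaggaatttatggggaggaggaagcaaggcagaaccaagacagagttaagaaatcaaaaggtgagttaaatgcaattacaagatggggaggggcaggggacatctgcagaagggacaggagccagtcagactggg
Pcyt1a: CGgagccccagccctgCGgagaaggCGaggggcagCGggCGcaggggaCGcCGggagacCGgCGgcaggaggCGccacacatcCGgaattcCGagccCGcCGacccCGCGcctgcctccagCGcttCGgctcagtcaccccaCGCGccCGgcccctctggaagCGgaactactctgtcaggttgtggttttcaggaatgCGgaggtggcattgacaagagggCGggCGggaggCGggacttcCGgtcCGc
The Etnppl window held 1 CG dinucleotide at 46.0% G+C, and the Pcyt1a window held 28 at 71.6%. Among all 32851 windows of this length the median was 6 CG dinucleotides and 52.4% G+C, and 18.8% of windows held at most 1. A window was found for 9 of the 10 members. Besides Etnppl, Pemt had a CG-poor first window (chr11:60040189-60040438, - strand), with 1 CG dinucleotide at 44.8% G+C. The first window of Chka (chr19:3851523-3851772, + strand) held 24 at 68.0% G+C. Of 7 motifs searched on both strands (the TATA box, TATAAA; the GC box, GGGCGG; the E-box, CACGTG; the nuclear receptor half-site, AGGTCA; the glucocorticoid receptor half-site, AGAACA; the CCAAT box, CCAAT; and the cyclic AMP response element, TGACGTCA), the Etnppl window shown held none. The window of a second annotated Etnppl start (chr3:130617325-130617574, + strand), which overlaps it, held GGGCGG starting 128 bases before that start and 1 CG dinucleotide at 55.6% G+C. The Pcyt1a window held GGGCGG starting 31 and 27 bases before the start, 2 matches that overlap, and 32.7% of all windows held that motif. CCAAT, which 33.8% of all windows held, was found in the Chka window at 82 and 28 bases before the start. It was also found in windows of Chkb, Chpt1 and Pemt. The Chka window held GGGCGG as well, at 153 and 8 bases before the start. A match describes the letters of the window, and a window without one says nothing of any factor.

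Cyp2e1 itself fell from 6480 ± 823 FPKM (SD, n = 3) in wild-type to 257 ± 12.0 FPKM (SD, n = 3) in knockout liver, a log2 difference of -4.64 (SE 0.13; limma adjusted p = 6.7e-08), in the direction of the labels. The summed FPKM per library ran from 562590 to 624264. Depth is not given in FPKM tables, but the steps between low values were best matched by about 8260000 to 10820000 fragments per library, with 67.2% to 72.5% of the low values tried lying within 0.15 of a whole fragment. Hepatocyte markers summed to 45447 to 52773 FPKM in knockout and 41862 to 48418 FPKM in wild-type libraries. The 7 macrophage markers summed to 70.2 to 127 FPKM in knockout and 139 to 151 FPKM in wild type, and 1 of the 7, Lyz2, fell (17.3 ± 3.31 against 31.9 ± 1.27 FPKM, SD, n = 3 each; limma adjusted p = 0.038). Markers of periportal hepatocytes summed to 4217 to 4967 FPKM in knockout and 3340 to 3631 FPKM in wild type, and 0 of 9 passed the test. Of these 9 differences, 7 were positive and 2 negative. Pericentral hepatocyte markers overlapped, at 1124 to 1187 FPKM in knockout and 1059 to 1167 FPKM in wild type, and 0 of 7 tested passed. Stellate cell markers summed to 71.9 to 74.8 and 78.5 to 93.9 FPKM, in the same order, most of it Dcn, and 0 of 5 tested passed. Red blood cell markers summed to 196 to 393 FPKM in knockout and 232 to 536 FPKM in wild type, and 1 of 3 tested, Alas2, fell (9.43 ± 0.86 against 47.9 ± 3.30 FPKM, SD, n = 3 each). The other 2 tested, Hba-a1 and Hba-a2, overlapped between genotypes, with log2 differences of 0.08 and -0.13. Cholangiocyte markers summed to 18.9 to 21.7 FPKM in knockout and 25.4 to 32.4 FPKM in wild type, nearly all of it Spp1. Only 1 of these 5, Spp1, was tested, and it did not pass. The other 4 were under 1 FPKM in all libraries. The part of these shifts in the values of the members was not tested. In whole liver, fewer cells of a type and less RNA per cell cannot be told apart. The labels do not say how the samples of a genotype were taken, so p-values measure the spread between these libraries, which may in part be technical.

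Etnppl stood at 43.7, 45.4 and 44.9 FPKM in knockout replicates 1 to 3, and at 13.3, 11.8 and 11.8 FPKM in the wild-type replicates. Every knockout library was above every wild-type library, with a wide gap between the groups and almost none within them. The means were 44.7 ± 0.88 and 12.3 ± 0.87 FPKM (SD, n = 3 each), 3.64 times higher in the knockout, and the difference was 1.78 on the log2(FPKM + 1) scale (SE 0.12). By size of the difference it ranked 20 of the 9968 tested genes. Its pooled SD within genotypes was 0.07 on that scale, smaller than in all but 3.41% of tested genes. Etnppl lies on chromosome 3 (GRCm38, 130617448 to 130635750, + strand, gene identifier 71760), and only 0.265% of the 31-base stretches of its transcripts occur in another annotated gene. Etnppl is also known from astrocytes of the brain, and the astrocyte markers Gfap, Aqp4 and Slc1a3 were listed at no more than 0.2 FPKM in any of these livers. The fourth gene on that list, Aldh1l1, a folate enzyme that hepatocytes also express, stood at 223 to 296 FPKM, so the list as a whole does not separate the cell types.

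**Figure D1:**
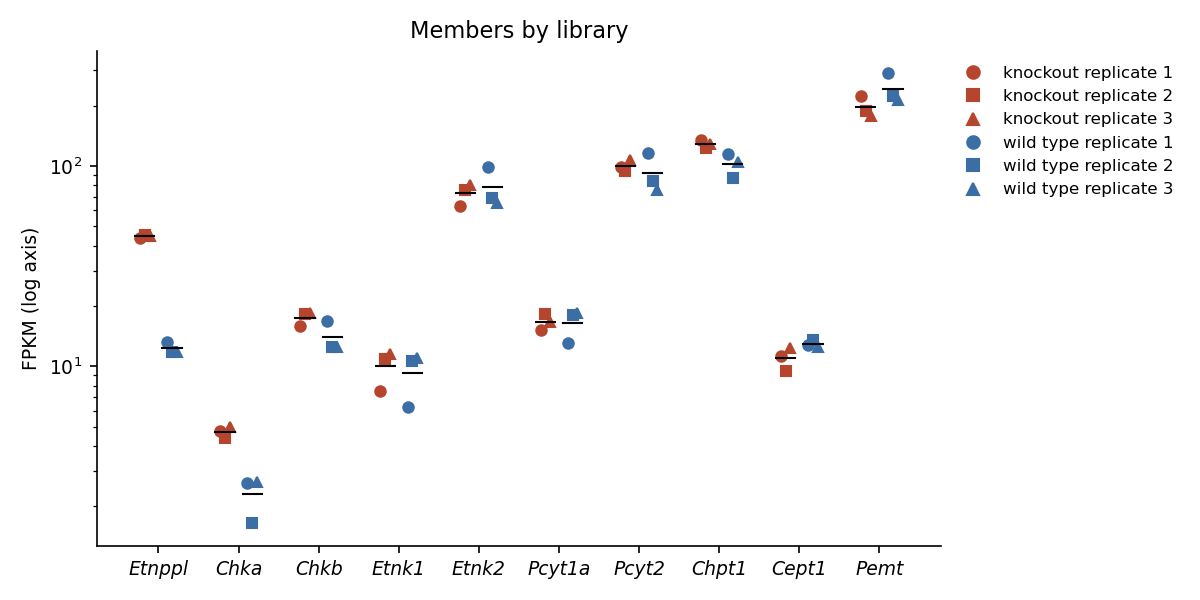
FPKM of the 10 genes on a log axis, knockout in red and wild type in blue, with 1 point per library, its shape giving the replicate number, and a black bar at the mean of each genotype. Etnppl separates the genotypes at about 45 against 12 FPKM, while 6 of the genes overlap.

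The ethanolamine kinases supply the phosphoethanolamine on which Etnppl acts. Etnk1 (chromosome 6, 143166866 to 143208546, + strand) had 7.57, 10.9 and 11.6 FPKM in the knockout and 6.24, 10.6 and 11.0 FPKM in the wild type. Replicate 1 was the lowest of its group in both genotypes, and the groups overlapped, although the knockout value was the higher in 3 of 3 same-numbered pairs. The labels do not state that the numbers pair the libraries. The difference was 0.12 on the log2(FPKM + 1) scale (SE 0.22), with a within-genotype SD of 0.36 that exceeded the SD of 90.9% of tested genes; without wild-type replicate 1 it was -0.12. Etnk2 (chromosome 1, 133363463 to 133380318, + strand) had 63.1, 76.0 and 79.9 FPKM in the knockout and 99.2, 69.2 and 65.7 FPKM in the wild type. Its highest and its lowest value were thus both in replicate 1, of opposite genotypes, and the difference of -0.08 (SE 0.17) was smaller than its SE. It turned positive without either of these libraries, at 0.02 when the knockout library was left out and 0.11 when the wild-type library was, and was 0.21 without both. Per unit length Etnk2 was the more abundant of the ethanolamine kinases in all 6 libraries, by 5.98 to 15.9 times.

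Choline is phosphorylated by the choline kinases. Chka (chromosome 19, 3851585 to 3894369, + strand) was the lowest expressed of the 10 genes, at 4.73, 4.37 and 4.98 FPKM in the knockout and 2.63, 1.65 and 2.66 FPKM in the wild type. All knockout libraries lay above all wild-type libraries. The means were 4.69 ± 0.31 and 2.31 ± 0.57 FPKM (SD, n = 3 each), 2.03 times higher in the knockout, with a difference of 0.80 on the log2(FPKM + 1) scale (SE 0.17). That was the second largest difference of the set, a size reached by 1.64% of tested genes in either direction, yet it did not pass the adjusted threshold over all genes. Fragments per library were estimated from the depths above and median annotated transcript lengths of 2549 bases for Chka and 4468 bases for Etnppl. They came to about 95 to 130 for Chka in the knockout and 36 to 58 in the wild type. Those for Etnppl were 1700 to 2100 and 450 to 490, in the same order. The lengths used to make the FPKM values are not known, so these numbers are rough.

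Chkb, the other choline kinase (chromosome 15, 89426349 to 89429927, - strand), had 16.0, 18.2 and 18.4 FPKM in the knockout and 16.9, 12.5 and 12.4 FPKM in the wild type. Wild-type replicate 1 reached into the knockout range, so the groups overlapped, and the difference was 0.32 (SE 0.15). Chkb is less certain than the rest: 50.7% of its exon bases are shared with Gm44502, a transcript annotated on the same strand, and reads there could be split between them. Gm44502 was listed at no more than 1.72 FPKM in any library.

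The cytidylyl transferases take the step often regarded as limiting for each branch, Pcyt1a for phosphatidylcholine and Pcyt2 for phosphatidylethanolamine. Pcyt1a (chromosome 16, 32430921 to 32475065, + strand) had 15.1, 18.2 and 16.7 FPKM in the knockout and 13.1, 17.9 and 18.6 FPKM in the wild type. The groups covered nearly the same range, with means of 16.7 ± 1.54 and 16.5 ± 2.98 FPKM (SD, n = 3 each) and a difference of 0.02 (SE 0.16), which turned to -0.04 when knockout replicate 2 was left out and -0.13 when wild-type replicate 1 was. Pcyt2 (chromosome 11, 120610062 to 120617947, - strand) had 98.2, 94.0 and 107 FPKM in the knockout and 116, 83.8 and 76.1 FPKM in the wild type. Its wild-type values spread on both sides of the knockout values, with means of 99.8 ± 6.71 and 92.1 ± 21.3 FPKM (SD, n = 3 each) and a difference of 0.14 (SE 0.16).

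The last step of the Kennedy pathway is carried out by Chpt1, which makes phosphatidylcholine, and Cept1, which accepts both CDP-choline and CDP-ethanolamine. Chpt1 (chromosome 10, 88469513 to 88503970, - strand) had 135, 123 and 129 FPKM in the knockout and 115, 87.0 and 105 FPKM in the wild type. All knockout values were above all wild-type values, by a narrow margin at the edge (123 against 115 FPKM). The means were 129 ± 5.93 and 102 ± 14.1 FPKM (SD, n = 3 each), a difference of 0.34 (SE 0.13). Cept1 (chromosome 3, 106502260 to 106547802, - strand) had 11.3, 9.50 and 12.3 FPKM in the knockout and 12.8, 13.6 and 12.5 FPKM in the wild type. It was the only member whose knockout values were all below the wild-type values, and the nearest pair stood at 12.3 and 12.5 FPKM; the difference was -0.22 (SE 0.14). Of the exon bases of Cept1, 24.7% overlap Dennd2d on the opposite strand, and the sources used here do not give whether the counting used strand.

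Pemt (chromosome 11, 59970614 to 60046561, - strand), which methylates phosphatidylethanolamine, was the most abundant member per unit length. It had 223, 187 and 178 FPKM in the knockout and 290, 224 and 212 FPKM in the wild type. Replicate 1 was the highest in both genotypes, and the highest knockout library lay between the lowest and the middle wild-type library. Within same-numbered pairs the knockout value was the lower in 3 of 3. The means were 196 ± 23.6 and 242 ± 41.9 FPKM (SD, n = 3 each), a difference of -0.30 (SE 0.15), the most negative of the set.

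**Figure D2:**
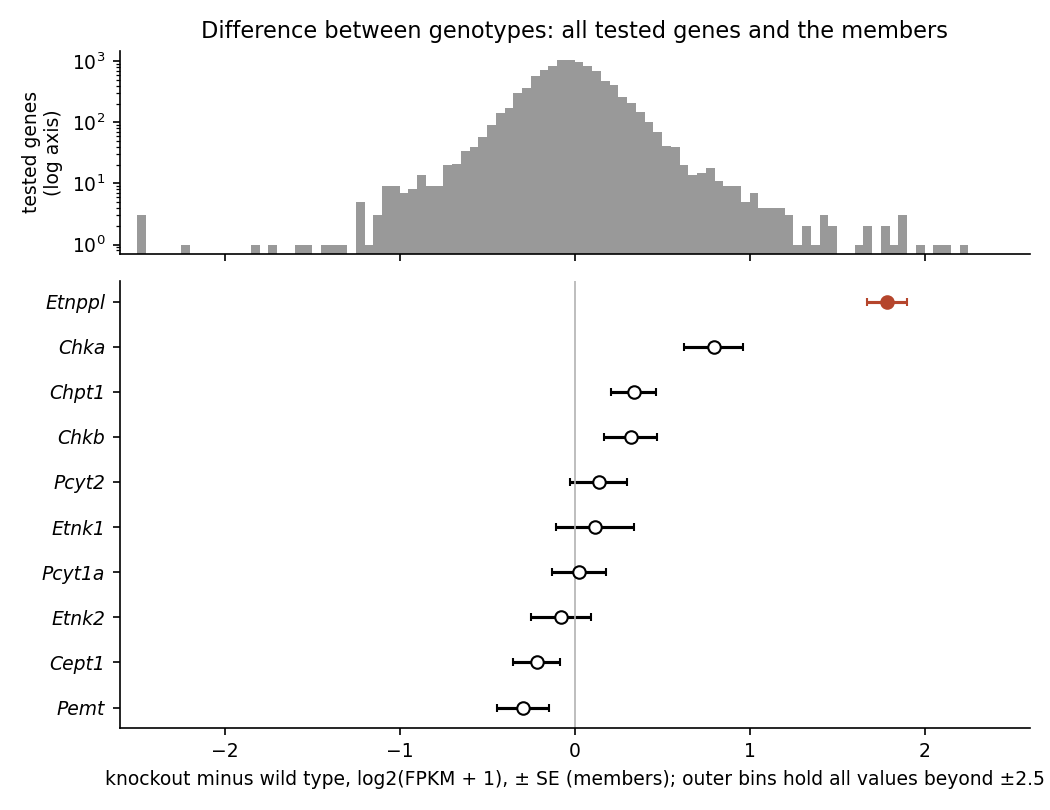
Difference between genotypes (knockout minus wild type, log2(FPKM + 1)): the upper panel is a histogram of all 9968 tested genes with a log count axis and outer bins that hold everything beyond the range, the lower panel the 10 genes with SE bars. Etnppl, filled, lies at 1.78 and Chka at 0.80, and the other 8 lie within 0.4 of 0.

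Of the 10 genes, 1 (Etnppl, higher in the knockout) passed an adjusted p of 0.05 in limma and 9 did not. Over all tested genes 0.762% passed, 0.472% higher and 0.291% lower in the knockout. The knockout values were all higher for 3 members (Etnppl, Chka and Chpt1) and all lower for 1 (Cept1), while 6 overlapped. Among all tested genes 15.4% did not overlap, 5.32% with the knockout all higher and 10% with it all lower. Within same-numbered pairs the knockout was the higher in 3 of 3 pairs for 4 members (Etnppl, Chka, Chpt1 and Etnk1) and the lower in 3 of 3 for 2 (Pemt and Cept1), against 13.2% and 22.1% of all tested genes. Since the members were chosen on this contrast, nothing is read from these counts. The difference was positive for 7 and negative for 3, with a median of 0.13 against -0.03 over all tested genes. Summed over the 10 genes, the libraries held 617, 587 and 602 FPKM in the knockout and 685, 532 and 528 FPKM in the wild type, so the total overlapped between genotypes.

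Ratios within a library cancel its overall scale, and several differed between genotypes along with the members that make them up; they describe the same libraries and are no further evidence. Etnppl relative to the summed ethanolamine kinases was 0.619, 0.522 and 0.491 in the knockout and 0.126, 0.148 and 0.154 in the wild type. Pcyt2, which competes with Etnppl for phosphoethanolamine, had 7.45 ± 1.18 times the FPKM of Etnppl in the wild type and 2.23 ± 0.16 times in the knockout (SD, n = 3 each). Transcripts for using phosphoethanolamine in synthesis therefore outnumbered those for breaking it down per unit length in every library, by a smaller factor in the knockout. The share of Chka among the choline kinases was 0.212 ± 0.017 in the knockout and 0.142 ± 0.031 in the wild type (SD, n = 3 each), and the groups did not overlap.

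Chpt1 over Cept1 was 11.9, 12.9 and 10.4 in the knockout and 8.99, 6.41 and 8.42 in the wild type. Pemt over Chpt1 was 1.65, 1.53 and 1.39 in the knockout and 2.53, 2.57 and 2.02 in the wild type. It sets a single transcript of the methylation route against a single transcript of the choline route. Pcyt1a and Cept1 also act in the choline route, so the ratio does not give the balance of the routes. In neither ratio did the genotypes overlap. Pcyt2 over Pcyt1a was 6.02 ± 0.74 in the knockout and 5.88 ± 2.61 in the wild type (SD, n = 3 each), and Etnk2 over Etnk1 reached 15.9 in wild-type replicate 1 alone against 5.98 to 8.33 elsewhere; both overlapped.

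**Figure D3:**
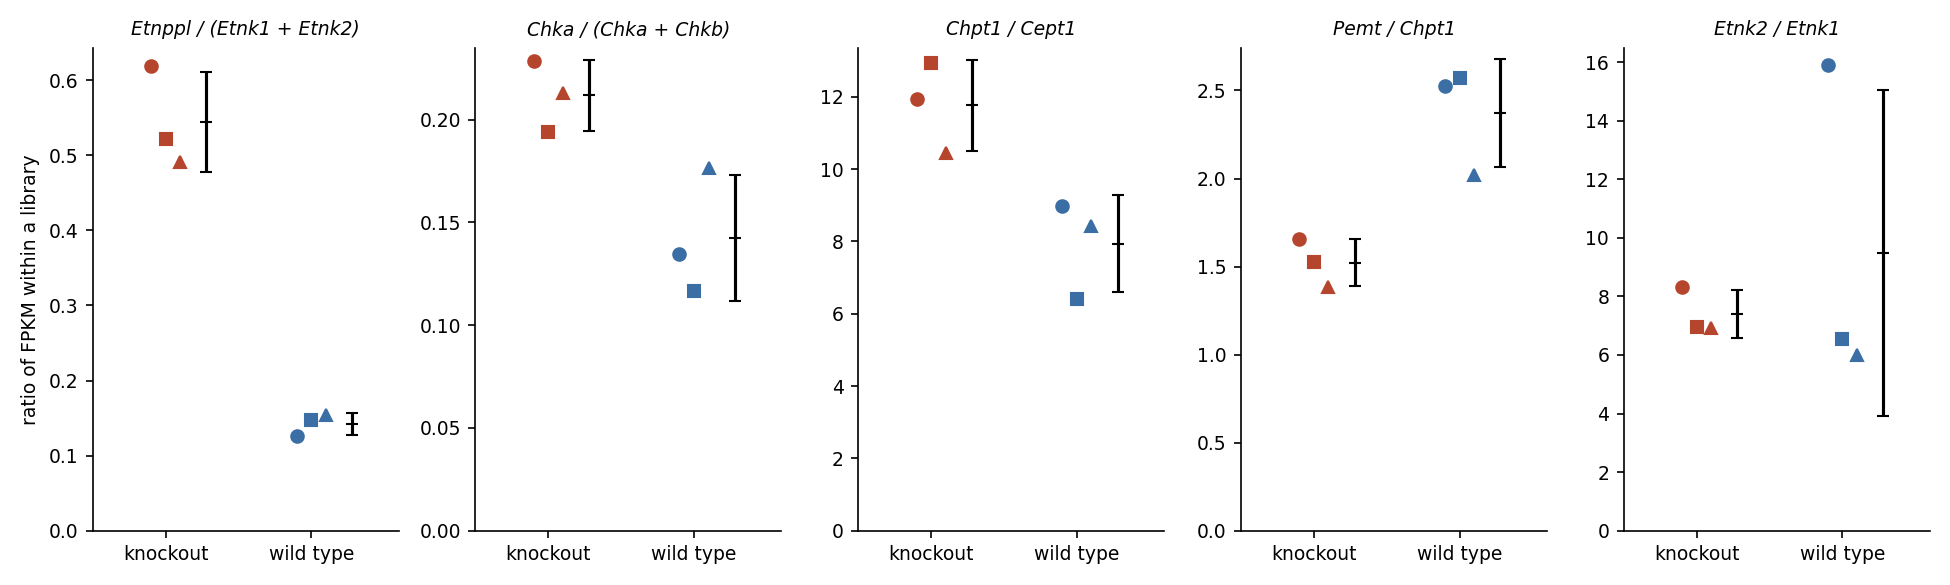
Ratios of FPKM within each library, 1 panel per ratio with axes from 0, points per library (circle, square and triangle for replicates 1, 2 and 3), and black bars for the mean ± SD of 3 libraries. The genotypes are apart in the first 4 panels and overlap for Etnk2 over Etnk1, where wild-type replicate 1 stands at 15.9.

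Replicate 1 stood apart from the other libraries of its genotype for several members. It was the highest in both genotypes for 2 members, Pemt and Chpt1, against 11.0% of tested genes. It was the lowest in both for 2 others, Pcyt1a and Etnk1, against 31.6% of tested genes. For Etnk2, Pcyt2 and Chkb, wild-type replicate 1 was the highest of its group and knockout replicate 1 was not, which widened the wild-type spread. Without replicate 1 of both genotypes, 6 members passed the adjusted threshold (Chka, Chkb, Chpt1, Etnppl and Pcyt2 higher, Pemt lower), where 11.9% of tested genes passed. With array quality weights, which let limma give libraries unequal weight, 4 members passed (Chka, Chkb, Chpt1 and Etnppl), where 11.5% of tested genes passed. The log2 differences without replicate 1 were 0.86 for Chka, 0.52 for Chkb, 0.39 for Chpt1, 0.33 for Pcyt2 and -0.25 for Pemt.

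**Figure D4:**
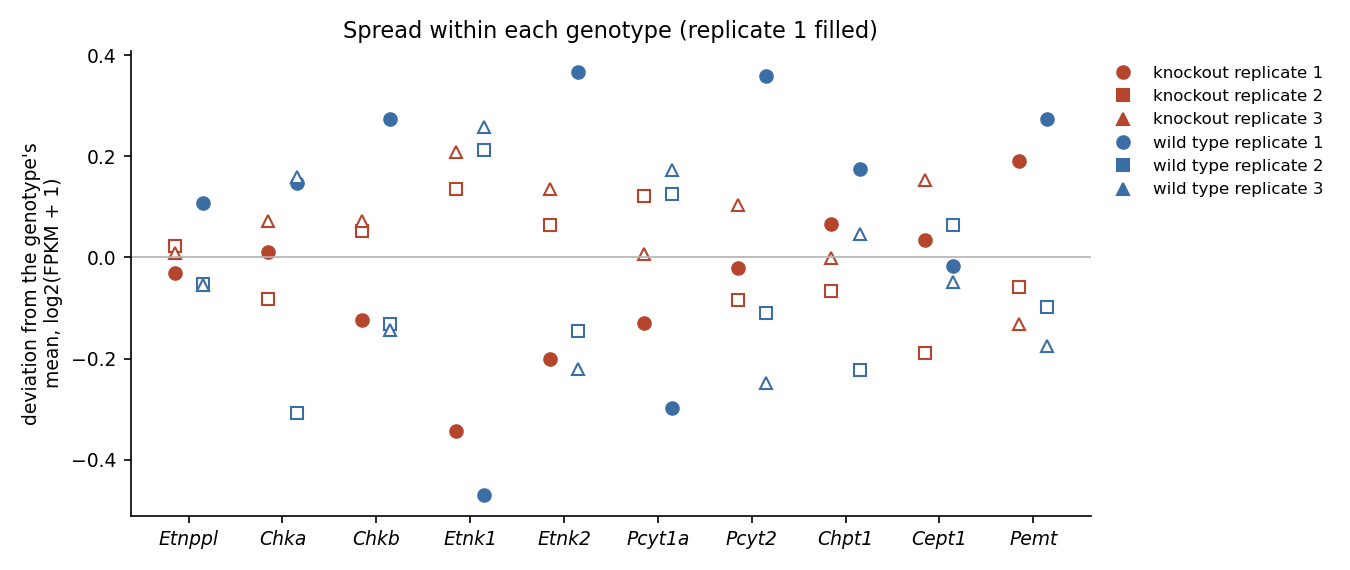
Deviation of each library from the mean of its own genotype, in log2(FPKM + 1), for the 10 genes, with replicate 1 filled and replicates 2 and 3 open. Replicate 1 is low in both genotypes for Etnk1 and Pcyt1a and high in both for Pemt and Chpt1, and the points of Etnppl stay closest to 0.

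Genes around the Kennedy pathway were taken from 9 lists drawn up by function, with 118 genes in all, of which 111 were in the table and 94 were tested. Earlier results of these data were known when the lists were drawn up, so the counts and p-values that follow are no independent evidence. Of these 94, 1 rose in the knockout (Bhmt), 0 fell and 93 did not pass, against 0.762% of all tested genes that passed. At an unadjusted p under 0.05 in limma there were 17 of the 94, 10 higher and 7 lower, and 990 of all 9968. Differences were positive for 52 and negative for 42, with a median of 0.02. Bhmt, which remethylates homocysteine with betaine made from choline, had 3473, 2616 and 2550 FPKM in the knockout and 1330, 1141 and 1148 FPKM in the wild type. The means were 2880 ± 515 and 1206 ± 107 FPKM (SD, n = 3 each), a log2 difference of 1.24 (SE 0.16; limma adjusted p = 0.0053, and 4.1e-06 to 0.056 over the alternatives), with 3 of 3 knockout libraries above all wild-type libraries. Bhmt no longer passed when wild-type replicate 3 was left out (adjusted p = 0.052 in limma) or the low-value filter was dropped (adjusted p = 0.056 in limma).

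Bhmt belongs to the list of methyl supply and choline oxidation, of which all 11 genes were tested. On that list 9 differences were positive and 2 negative, and the median was 0.23. The knockout values were all higher for 6 of the 11, against 5.32% of all tested genes. Since the list was drawn up with earlier results known, nothing is read from that count. Mat1a, which makes S-adenosylmethionine in hepatocytes, had 926, 1056 and 984 FPKM in the knockout and 735, 708 and 690 FPKM in the wild type, a difference of 0.47 that did not pass (limma adjusted p = 0.15). It did pass with quantile normalization, with array quality weights and without replicate 1 of both genotypes; it is named after its values were seen. Gnmt, the glycine methyltransferase that consumes S-adenosylmethionine, overlapped between genotypes, at 1252 to 1542 FPKM in the knockout and 1105 to 1507 FPKM in the wild type.

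No gene of the other 8 lists passed. In the rest of the Kennedy and decarboxylation genes, 4 of 6 tested differences were positive (median 0.06). There Pisd, which decarboxylates phosphatidylserine to phosphatidylethanolamine, stood at 15.4 ± 2.0 FPKM in the knockout and 13.9 ± 0.23 FPKM in the wild type, and Ptdss1, a phosphatidylserine synthase, at 12.3 ± 1.40 and 11.1 ± 0.59 FPKM (SD, n = 3 each). The choline transporter Slc44a1 had 7.68 ± 0.87 and 7.69 ± 1.01 FPKM, in the same order (SD, n = 3 each). The relatives of Etnppl in the class III aminotransferase family are Oat, Agxt2, Abat and Phykpl, of which 0 passed: Oat, the ornithine aminotransferase, differed by 0.04 and Agxt2 by -0.20 on the log2(FPKM + 1) scale, and the median over all 4 relatives was 0.08. Sgpl1, the sphingosine-1-phosphate lyase that releases phosphoethanolamine from sphingolipids, had 9.19, 11.1 and 11.2 FPKM in the knockout and 8.20, 11.5 and 9.12 FPKM in the wild type.

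The products of the Etnppl reaction are handled by alcohol and aldehyde dehydrogenases and by ammonia-fixing enzymes. Of 5 such genes 4 differences were positive and 1 negative, with a median of 0.21. The knockout values were all higher for 2 (Glul and Aldh1b1) and all lower for 1 (Adh1), against 5.32% and 10% of all tested genes. Glul stood at 362 ± 22.0 FPKM in the knockout and 288 ± 22.0 FPKM in the wild type (SD, n = 3 each) and did not pass. Aldh2, the mitochondrial dehydrogenase that oxidises acetaldehyde, overlapped between genotypes at 540 ± 100 and 465 ± 58.3 FPKM (SD, n = 3 each). Adh1, an alcohol dehydrogenase, stood at 724 ± 33.2 FPKM in the knockout and 902 ± 91.5 FPKM in the wild type (SD, n = 3 each) and did not pass.

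The remaining lists were centred near 0. Phospholipid remodelling and breakdown (22 tested, 10 positive and 12 negative) had a median of -0.03, with Gpcpd1 and Gde1, phosphodiesterases that act on glycerophosphodiesters, at differences of 0.23 and 0.21. On the same list Gdpd3 differed by -0.70 (14.4 ± 1.92 FPKM in the knockout and 23.9 ± 1.91 FPKM in the wild type, SD, n = 3 each). All its knockout values were lower, and it did not pass (limma adjusted p = 0.061). It did pass without knockout replicate 1, with array quality weights and without replicate 1 of both genotypes. Like Mat1a, it is named after its values were seen. The sphingolipid list (18 tested) had a median of -0.03, with the ceramide synthase Cers2 at -0.21 and the desaturase Degs1 at -0.08. The diacylglycerol branch (15 tested) had a median of 0.08, with the phosphatidate phosphatase Lpin1 at 0.54 (SE 0.28) and the acyltransferase Agpat2 at 0.27 (SE 0.18). Flippases and lipid transfer genes (9 tested) had a median of -0.07, with Stard10 at 0.07 and Mttp at -0.14. The authors' own pathway column for glycerophospholipid metabolism holds all 10 members and 100 other genes; of the 71 others tested, 0 passed in limma (6 at an unadjusted p under 0.05), 44 differences were positive and 27 negative.

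**Figure D5:**
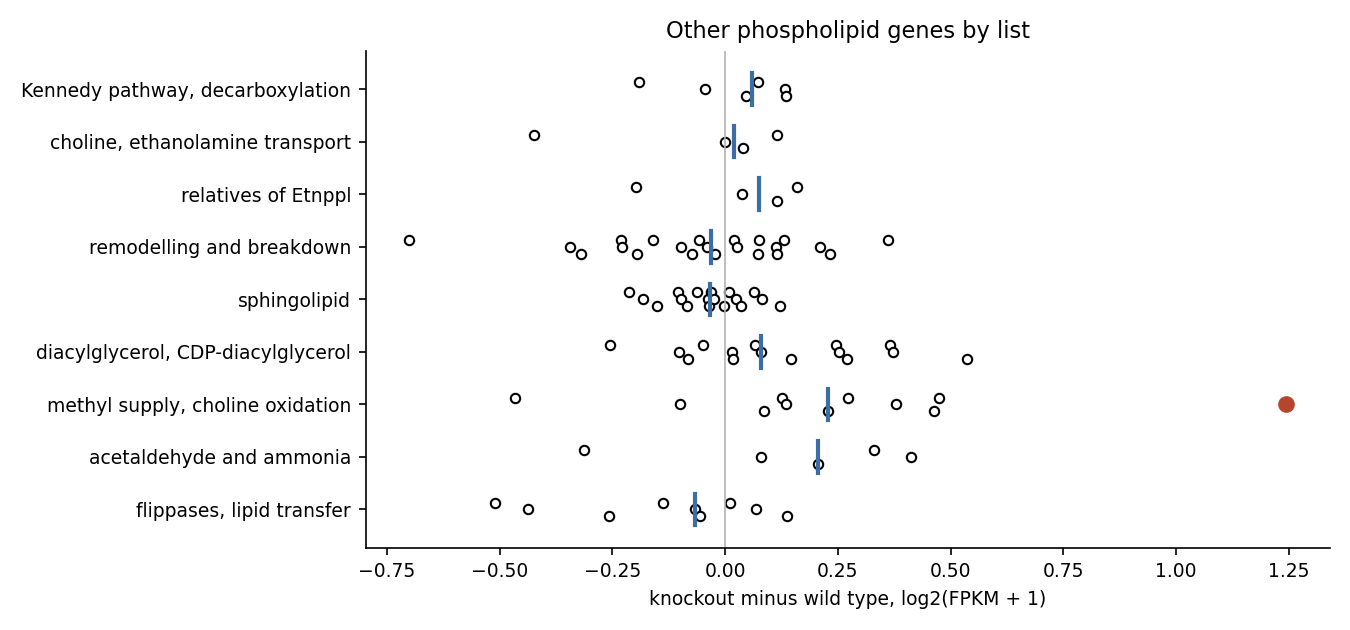
Difference between genotypes (knockout minus wild type, log2(FPKM + 1)) for the 94 tested genes of 9 phospholipid lists, 1 circle per gene, with a blue bar at each median. Bhmt, filled, lies at 1.24; the list medians run from -0.07 to 0.23.

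Over the 6 libraries the profile of Chka was the nearest to that of Etnppl among the members, followed by Chpt1 and Chkb, with Pearson's r of 0.94, 0.83 and 0.77. Pemt and Cept1 ran the other way (r of -0.63 and -0.72). Such coefficients mostly repeat the difference between the same 2 groups of 3 libraries and carry no test. Among all tested genes, the 5 whose centred log2(FPKM + 1) profile lay nearest to that of Etnppl were Gm1943, Gm14325, Cyp4a14, Zfp971 and Gm14296, at root mean square distances of 0.12, 0.15, 0.18, 0.23 and 0.24. Cyp4a14, a fatty acid hydroxylase known as a target of the receptor PPARα, was the only 1 of these 5 at a level above that of Etnppl, with 583, 596 and 609 FPKM in the knockout and 252, 156 and 158 FPKM in the wild type. Gm1943 had 3.06, 2.92 and 2.79 FPKM in the knockout and was listed at 0 in all wild-type libraries. Gm14325, Zfp971 and Gm14296 had at most 5.26 FPKM in any library. These 3 and Gm1943 were below 1 FPKM in every wild-type library and passed the low-value filter only through the knockout, so their likeness to Etnppl rests on values near 0 on the wild-type side.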

How the data were processed

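Mouse liver RNA was sequenced in 6 libraries, 3 per genotype. The authors deposited 1 table of FPKM per gene and library; HISAT and mm10 are named in the submitters' processing notes, and the quantification program, its version and its use of strand are not given in those sources. FPKM holds no counts, so log2(FPKM + 1) was tested in limma 3.58.1 (R 4.3.3; lmFit, then eBayes with trend) on the 9968 genes that reached 1 FPKM in 3 or more libraries, with Benjamini-Hochberg adjustment over them and a threshold of 0.05. Differences and their SE come from that fit and understate the change of low genes. The steps between low FPKM values gave whole fragments for too few values to recover reads, so no count test was run and the depths are estimates that give no intervals.

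The members and the gene lists were chosen with earlier results of these data known. All members were named, and so were the 5 tested genes nearest to Etnppl by profile. From each list the rule names the genes past the threshold or, with none, the 2 with the highest mean FPKM. Mat1a, Gnmt, Sgpl1, Glul, Aldh1b1 and Gdpd3 are named from the lists outside this rule, and nothing is read from their choice. 1 gene that this rule names is not reported here. Same-numbered libraries deviated together (correlations of deviations from the genotype means of 0.30, 0.20 and 0.16 over 9968 genes). Same-numbered pairs are therefore described, from the data alone, since the labels state no pairing. The correlation of knockout replicate 3 was higher with wild-type number 2 (0.21) than with its own number, so the pattern mainly sets number 1 apart. The main fit used genotype only, and the fit with the replicate number as a block was an alternative. Other alternatives changed the pseudocount, the filter, the scaling, the trend, the weights and the libraries kept. The code was tested on simulated data. Exons came from GENCODE vM21 on GRCm38, and promoter windows from RefSeq on GRCm38.p6.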

Additional observations from a re-analysis of the deposited data

How the results depend on the processing

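The log2 difference of Etnppl, a description since it was chosen on this contrast, ran from 1.76 to 1.86 over the 17 alternatives run; it was 1.86 with a pseudocount of 0.1 and 1.85 without replicate 1 of both genotypes. Chka was higher in the knockout under all 16 alternatives that tested it, by 0.64 to 1.02, and passed under 2. The number of genes past the threshold, 76, became 32 without the low-value filter, 36 with at least 5 FPKM, 1151 with array quality weights and 1183 without replicate 1 of both genotypes. It ran from 29 to 211 when 1 library was left out: 211, 29 and 37 without knockout replicates 1, 2 and 3, and 117, 32 and 32 without wild-type replicates 1, 2 and 3. The members past the threshold, 1, became 4 with the weights and 6 without replicate 1 of both genotypes. The other phospholipid genes past it, 1, became 0 without the filter, 2 with quantile normalization (Mat1a added), 15 with the weights, 20 without replicate 1 of both genotypes, and 0 to 2 when 1 library was left out. The cause of these changes was not tested. With the replicate block, 72 genes passed (42 higher), and it changed no call among the members (1, Etnppl, passed) or the other phospholipid genes (1, Bhmt, passed). Signs were checked for 27 genes, the members and those that the rule names from the lists. Of these, Etnppl and Bhmt were past the threshold, and neither changed sign. Of the named differences not past it, 7 changed sign under at least 1 of 17 alternatives: Etnk2 (4, up to 0.21), Pcyt1a (4, down to -0.13), Etnk1 (1, -0.12), Slc44a1 (5, up to 0.09), Oat (2, down to -0.08), Stard10 (1, -0.02) and Mttp (1, 0.01). With 3 libraries per genotype, differences of the size of most members lay within the spread between libraries, and Chka rested on few fragments by a rough estimate.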
